A study of Mus musculus with 81 samples.

Results

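The genes described are 32 mouse genes of collagens, extracellular matrix and stromal cells, named in a list by gene symbol, of 55450 genes listed in the count files of the time course. They are 5 subunits of fibrillar collagens (Col1a1, Col1a2, Col3a1, Col5a1, Col5a2), 2 of basement membrane collagen (Col4a1, Col4a2), 3 of collagen VI (Col6a1, Col6a2, Col6a3), 3 genes of collagen folding and crosslinking (Serpinh1, Lox, Loxl1), 3 small proteoglycans (Bgn, Dcn, Lum), 9 secreted glycoproteins (Sparc, Fn1, Postn, Fbn1, Thbs2, Mgp, Igfbp7, Fstl1, Timp3), 4 genes of the contractile cytoskeleton and caveolae (Acta2, Cald1, Tagln, Cav1) and 3 of stromal signalling (Pdgfra, Pdgfrb, Cxcl12). The question put to them was whether they rise and fall together from library to library as well as with genotype and treatment. All 32 symbols were found in the files, on 15 chromosomes.

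The study deleted both genes of the histone variant H3.3, H3f3a and H3f3b, in the myeloid lineage and sequenced RNA of macrophages. WT mice were H3f3a fl/fl H3f3b fl/fl without Cre, and cKO mice carried the same floxed alleles with LysM cre/cre, in which the myeloid gene Lyz2 drives the recombinase, so that loss of H3.3 and presence of Cre cannot be told apart. Mice were C57BL/6, of either sex and 8 to 10 weeks old. Of 81 libraries, 79 were placed in 27 groups of 2 or 3, which the labels call biological replicates without naming the mouse of each. Bone marrow was grown into bone marrow-derived macrophages (BMDMs) in medium conditioned by L929 cells, a mouse fibroblast line that secretes the macrophage growth factor M-CSF. WT and cKO cells were taken on days 3, 5 and 7, on day 8 with or without interferon gamma (IFNg) for 12 h, and after no antibody, an isotype control antibody or an antibody that blocks the type I interferon receptor IFNAR1, given from the start of culture. Another 3 sets of WT and cKO BMDMs (sets 1 to 3) had titles that differ in wording only. Groups of 3 cKO libraries also lacked Sting, Mavs or Irf7 through germline alleles, which gives the Sting, Mavs and Irf7 double KO. Macrophages isolated from the peritoneum of WT and cKO mice had no culture.

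Collagens I, III and V assemble into the fibrils of connective tissue, which the chaperone encoded by Serpinh1 helps to fold and the enzymes encoded by Lox and Loxl1 crosslink. Collagen IV forms the sheet of basement membranes, and collagen VI forms beaded filaments around cells. Fibroblasts, marrow stromal cells, mural cells and mesothelial cells make most of these proteins, whereas macrophages are better known for taking up and degrading collagen. Fn1, which encodes fibronectin, is an exception, because resident peritoneal macrophages express it at a high level. Adherent marrow cultures can keep some stromal cells beside the macrophages.

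Libraries held 3614967 to 45581528 counts on genes, with a median of 18333377. H3f3a was between 33.6 and 93.8 CPM (counts scaled to library size) in WT libraries and between 1.21 and 15.3 CPM in all libraries with the cKO, so no library went against its genotype label. H3f3b was at 295 to 468 CPM in WT and 16.7 to 67.8 CPM in cKO of the antibody experiment, whereas elsewhere the gap was smaller, without overlap on untreated day 8 and in sets 2 and 3 and with overlap in the other comparisons of cKO with WT. Tmem173, which encodes STING, was at 5.01 to 6.10 CPM in the Sting double KO and 68.2 to 91.6 CPM in the cKO of the sets. Irf7 was at 98.3 to 112 CPM in the Irf7 double KO and 249 to 470 CPM in the same cKO libraries. Mavs was at 37.2 to 37.9 CPM in the libraries labelled Mavs double KO, inside the 36.0 to 51.6 CPM of the cKO. By set, the cKO ran from 42.9 to 51.6, 48.5 to 51.0 and 36.0 to 41.9 CPM in sets 1 to 3, so only set 3 overlapped. The paper reports genotyping PCR, quantitative PCR and read tracks that show the Mavs deletion. Macrophage identity was present in every library, with the M-CSF receptor gene Csf1r at 897 CPM or more and Adgre1, which encodes F4/80, at 494 CPM or more. The IFNg treated cKO library of replicate 1 stood apart, with the lowest depth of all and 57.1% of its reads unmapped. For comparisons that use it, counts of calls or median fold changes are given with and without it. Other values that use it, such as fold changes of single genes, are given with it only. In bulk samples, fewer cells of a type and less RNA per cell cannot be told apart.

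The genes were low in cultured macrophages. Over the 73 BMDM libraries assigned to a group, the 32 genes summed to between 35.2 and 1222 CPM. Compared per kilobase of the coding transcript, the highest median levels were those of Sparc, which encodes the collagen-binding glycoprotein SPARC, at 4.39 CPM per kb, and Col1a1 at 3.84 CPM per kb. Acta2 (smooth muscle actin), Fn1 and Col1a2 followed at 3.65, 3.28 and 3.10 CPM per kb. Levels of these 5 genes overlapped widely, since Col1a1 alone ran from 1.98 to 159 CPM. The proteoglycan gene Lum was at 0 in 63 of 73 BMDM libraries and Dcn in 28 of 73.

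**Figure D1:**
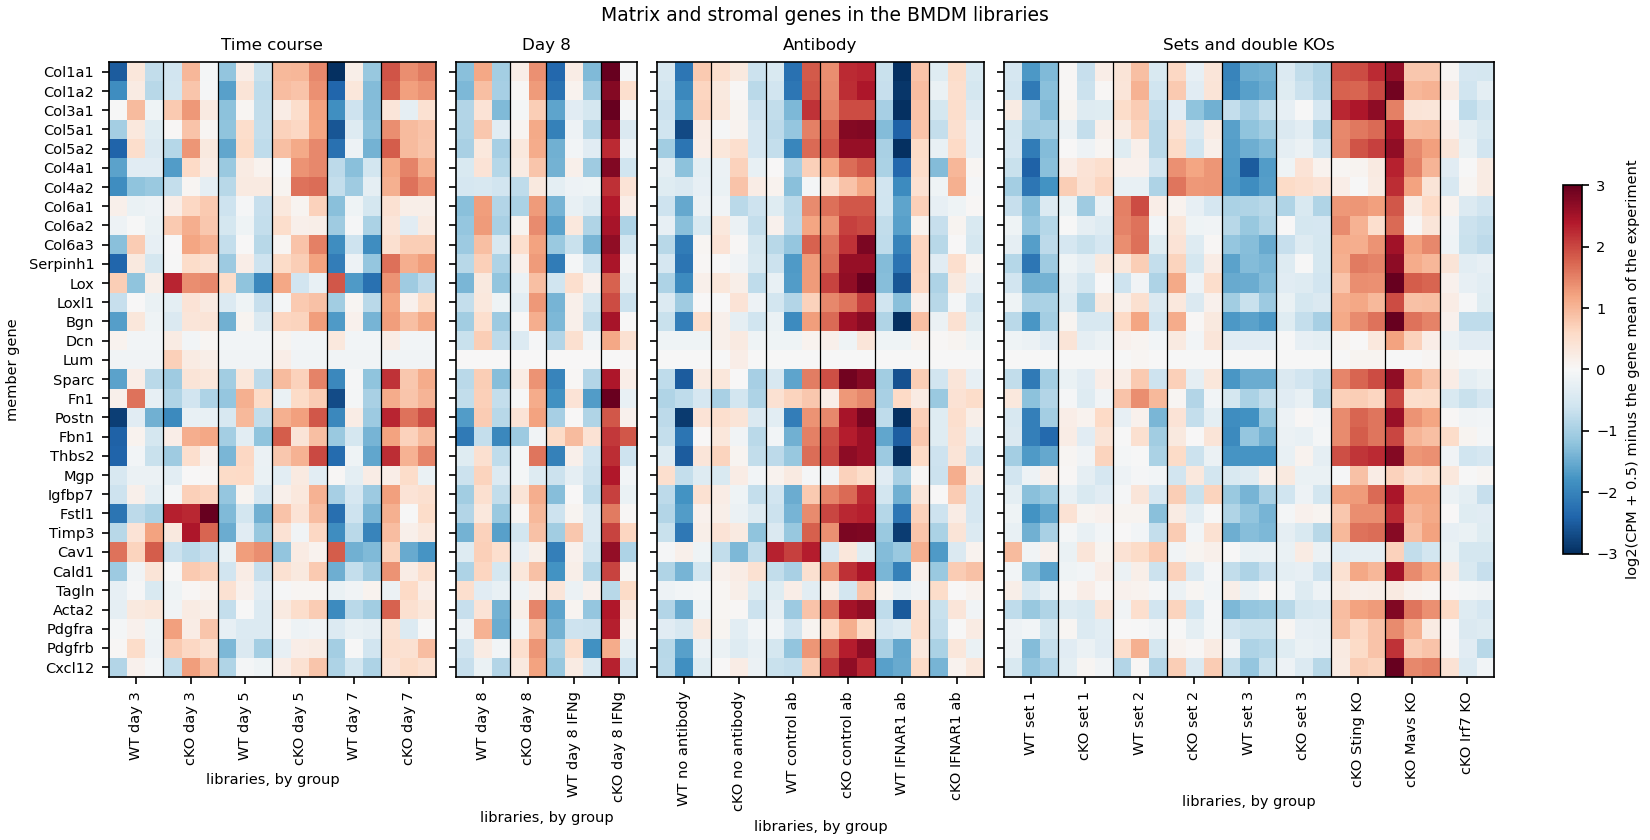
Each row is 1 of the 32 genes and each column 1 library, grouped by experiment, with colour giving log2(CPM + 0.5) minus the gene's mean over that experiment, clipped at 3 in either direction. Columns are mostly of 1 colour from top to bottom, so that whole libraries stand high or low, such as the IFNg treated cKO library of replicate 1 and replicate 1 of the Mavs double KO.

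On days 3 to 7, the collagens overlapped between WT and cKO cells at first and lay apart at the end. On day 3, Col1a1 was at 3.20, 26.0 and 12.1 CPM in WT and 13.6, 41.4 and 19.6 CPM in cKO. On day 7, Col1a1 was at 1.98, 23.3 and 9.05 CPM in WT and 76.9, 54.5 and 60.8 CPM in cKO. The genotypes overlapped on day 3 and did not on day 7, and on day 3 each cKO library exceeded the WT library of the same number. The partner chain Col1a2 had 3.07, 15 and 6.85 CPM in WT against 8.36, 22.7 and 12.2 CPM in cKO on day 3, and 1.98, 15.9 and 4.81 CPM against 44.5, 30.2 and 32.5 CPM on day 7. Sparc had 1.09, 5.10 and 2.30 CPM in WT against 1.82, 5.88 and 5.70 CPM in cKO on day 3, and 0.782, 4.27 and 1.60 CPM against 21.3, 7.97 and 10.02 CPM on day 7. Both followed the order of Col1a1, with replicate 2 the highest WT library on each day. Col3a1 had 2.18, 4.75 and 1.97 CPM in WT on day 3 and 0.261, 1.26 and 0.620 CPM on day 7, against 4.21, 6.16 and 2.77 CPM and then 3.0, 1.76 and 3.20 CPM in cKO.

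Few of these differences passed the test across all genes. Log2 fold changes of cKO over WT on day 7 were 2.50 ± 0.72 (SE, n = 3 against 3) for Col1a1, 2.27 ± 0.67 for Col1a2, 1.94 ± 0.58 for Col3a1 and 2.60 ± 0.66 for Sparc. Adjusted p-values of edgeR's quasi-likelihood test were 0.0912, 0.101, 0.102 and 0.0634, all above the threshold of 0.05. The replicate number was also used as a block in edgeR, with the same effect in all groups of the time course. Col1a1 then had an adjusted p of 0.0177, Col1a2 of 0.0191 and Sparc of 0.0314. Col3a1 stayed above the threshold at 0.0524. Same-numbered day 7 libraries deviated together over all genes (r of 0.153 to 0.467), but the labels tie no WT mouse to a cKO mouse. For this list their order differed, with WT replicate 2 the highest for 23 of 27 genes and cKO replicate 1 for 21.

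The genes that passed on day 7 were Igfbp7, Acta2, Cald1 and Col4a2, all higher in cKO. Acta2 was at 1.30, 3.29 and 2.74 CPM in WT and 22.2, 8.73 and 7.97 CPM in cKO (log2 fold change 2.42 ± 0.40, adjusted p = 0.00639). Cald1, which encodes the actin-binding protein caldesmon, was at 0.834, 1.75 and 1.24 CPM in WT and 8.76, 3.75 and 4.67 CPM in cKO (2.18 ± 0.46, adjusted p = 0.0314). Col4a2 was at 4.22, 3.22 and 6.0 CPM in WT and 15.8, 23.5 and 19.6 CPM in cKO (2.12 ± 0.41, adjusted p = 0.0198). In each of them the lowest cKO library exceeded the highest WT library. Igfbp7, which encodes an insulin-like growth factor binding protein of the matrix, had a mean level under 1 CPM in WT and a log2 fold change of 2.62 ± 0.59 (adjusted p = 0.0389).

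By count, 4 of 27 tested genes were higher on day 7 and 0 lower by edgeR, where 1.40% of all genes tested were called in either direction and 0.871% were called higher. All cKO libraries lay above all WT libraries for 24 of 27, against 9.50% of all genes, and the median log2 fold change was 2.27. At an unadjusted p under 0.05 there were 25, DESeq2 called 20, and the replicate block called 18. Here and below, shares of all genes called are those of the main edgeR fit. Counts at an unadjusted p or under other settings cannot be set against them. With only the day 7 groups in the model edgeR called 0, so that Igfbp7, Acta2, Cald1 and Col4a2 lost their calls. Leaving out 1 library of the pair of groups gave 1 to 9 calls. On day 5, edgeR called 0 of 27, where 2.83% of all genes were called, with 18 at an unadjusted p under 0.05 and 4 by DESeq2. Groups did not overlap, with cKO above, for 22 of 27 on day 5 against 15.4% of all genes, and the median log2 fold change was 1.52. On day 3 edgeR called 1 of 27, Fstl1, where 7.73% of all genes were called, and 3 with the replicate block. On that day 6 genes lay wholly above in cKO, against 18.3% of all genes, and 2 wholly below, Fn1 and Cav1, against 15.8%. On day 3, 24 of 27 genes had a positive fold change, with a median of 0.84 on the log2 scale.

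Fstl1 and Fn1 took courses of their own. Fstl1, which encodes the secreted glycoprotein follistatin-like 1, was at 0.136, 1.17 and 1.01 CPM in WT on day 3 and 14.1, 13.4 and 24.1 CPM in cKO. Its cKO levels on day 7 were 5.59, 2.40 and 3.72 CPM. The difference on day 3 was a log2 fold change of 4.43 ± 0.63 (adjusted p = 0.000594), and Fstl1 fell in cKO from day 3 to day 7 by 2.14 on the log2 scale (SE 0.54, adjusted p = 0.0153). Fn1 was at 22.2, 62.2 and 16.6 CPM in WT on day 3, above the 10.3, 13.2 and 10.2 CPM of cKO. By day 7 Fn1 was at 2.66, 19 and 9.88 CPM in WT and 43.5, 35.9 and 40.6 CPM in cKO, with the order of the genotypes turned and no overlap on either day. Neither difference passed, at adjusted p-values of 0.135 and 0.125, although that on day 7 did with the replicate block (adjusted p = 0.0321 in edgeR). The change of the Fn1 difference between the days, 3.53 ± 0.87 on the log2 scale, had an adjusted p of 0.0987. Day 5 levels of Fn1 overlapped, at 8.60, 41.8 and 29.9 CPM in WT and 17.1, 29.8 and 34.1 CPM in cKO. On day 5, Col1a1 was at 8.78, 23.4 and 12.6 CPM in WT and 40.4, 41.4 and 56.3 CPM in cKO, without overlap.

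Within each genotype, few of the genes passed the test between days. From day 3 to day 7 in WT, edgeR called 3 of 27 lower, where 23.9% of all genes were called. These were Timp3, an inhibitor of matrix metalloproteinases, with a log2 fold change of -2.89 ± 0.78 (adjusted p = 0.0157), Col3a1 with -2.10 ± 0.58 (adjusted p = 0.0169) and Acta2 with -1.51 ± 0.39 (adjusted p = 0.0131). In cKO over the same days 3 were called, where 14% of all genes were called. Postn, which encodes the matrix protein periostin, rose by 2.85 ± 0.82 (adjusted p = 0.0292) and Col4a2 by 1.72 ± 0.41 (adjusted p = 0.0106), whereas Fstl1 fell as given above. With the replicate block, the count in cKO was 9. In cKO, all day 7 libraries lay above all day 3 libraries for Col1a1, Col1a2, Sparc and Fn1, which edgeR did not call. Col3a1 overlapped, and of all genes 18.8% lay wholly above. Between neighbouring days, edgeR called 0 in WT, where 2.64% of all genes were called from day 3 to 5 and 0.238% from day 5 to 7, with 3 and 2 genes of the list at an unadjusted p under 0.05. In cKO it called 1, Col4a2, from day 3 to 5 (1.64 ± 0.41, adjusted p = 0.0362, 3.59% of all genes) and 0 from day 5 to 7 (0.0564%, with 0 at an unadjusted p under 0.05). For the change of the cKO and WT difference from day 3 to day 7, edgeR called 0 genes of the list, where 0.0439% of all genes were called, with 6 of 27 at an unadjusted p under 0.05, and with the replicate block it called 1, Fn1. Its median over the 27 genes was 1.54 on the log2 scale.

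**Figure D2:**
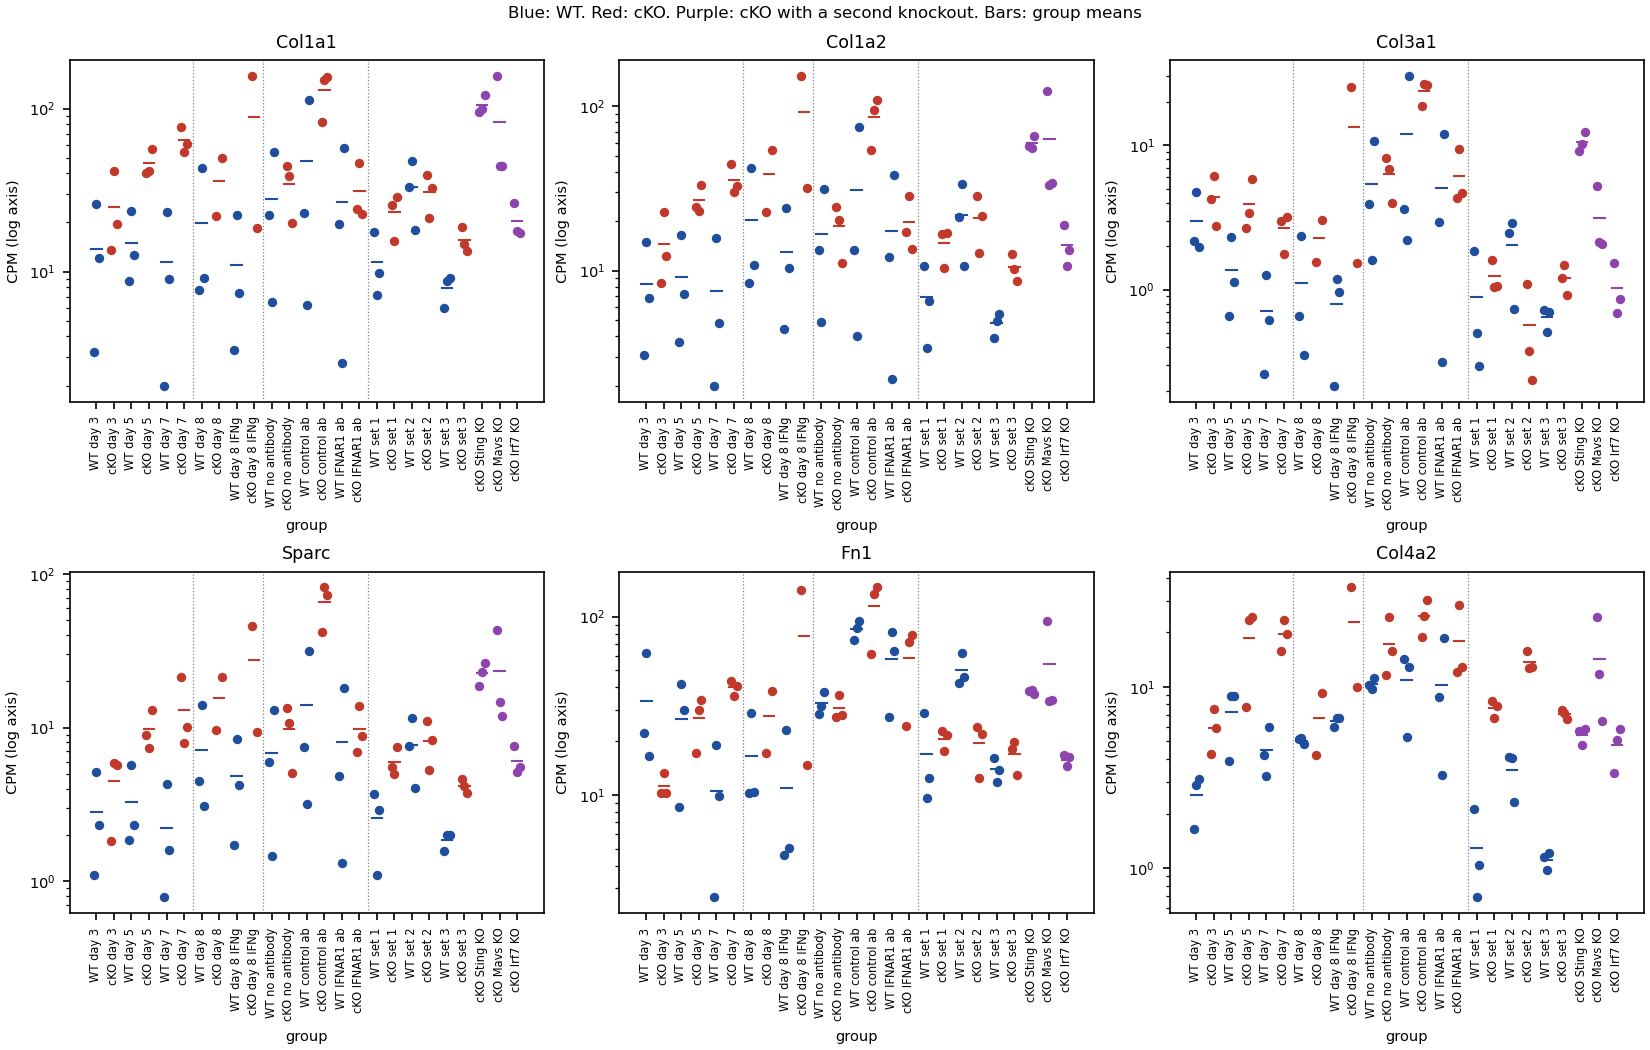
Points are single BMDM libraries of Col1a1, Col1a2, Col3a1, Sparc, Fn1 and Col4a2, with CPM on a log axis by group, WT in blue, cKO in red and double KO in purple, and bars mark group means. On day 7 the cKO points of Col1a1 lie above those of WT without overlap, and under the control antibody they overlap with 1 WT point, with cKO at 54.5 to 76.9 CPM and 83.2 to 156 CPM.

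On day 8, with 2 cKO libraries, the genotypes overlapped. Col1a1 was at 7.68, 42.9 and 9.19 CPM in WT and 21.8 and 49.97 CPM in cKO. Col1a2 was at 8.45, 42.1 and 10.9 CPM in WT and 22.6 and 54.6 CPM in cKO. Replicate 2 of WT was the highest WT library for 29 of 29 tested genes. Col3a1 was at 0.658, 2.34 and 0.350 CPM in WT and 1.54 and 3.03 CPM in cKO, Sparc at 4.5, 14 and 3.06 CPM and 9.58 and 21.5 CPM, and Fn1 at 10.2, 28.8 and 10.3 CPM and 17.2 and 38 CPM. In these 5 genes the highest WT library lay between the cKO libraries. EdgeR and DESeq2 called 0 of 29, where edgeR called 0.612% of all genes, and 1 had an unadjusted p under 0.05. Groups did not overlap for 3, with cKO above, against 18% of all genes, and the median log2 fold change was 0.99.

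Fbn1 was the gene of the list that rose with IFNg in both genotypes. Fbn1, which encodes the microfibril protein fibrillin-1, was at 1.87, 5.74 and 2.19 CPM in untreated WT and 14.8, 19.2 and 13.2 CPM after IFNg. In cKO, Fbn1 was at 4.30 and 9.0 CPM without and 44.1 and 36.4 CPM with IFNg, and treated libraries lay above untreated ones in both genotypes. Its log2 fold change was 2.27 ± 0.40 in WT (adjusted p = 0.00145) and 2.59 ± 0.47 in cKO (adjusted p = 0.00225). It was the sole call of 29 in WT, where 40.1% of all genes were called, and lost that call when the 2 conflicting libraries were placed by title. In cKO Col4a2 was called too (1.60 ± 0.52, adjusted p = 0.0374), where 33.6% of all genes were called, and without replicate 1 of the treated cKO libraries the count was 1.

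Replicate 1 of the IFNg treated cKO libraries was the higher of the 2 for 29 of 29 genes. The 10 mesothelial and epithelial markers summed to 17.5 CPM in it, against 0.471 CPM in replicate 2 and 0.0812 to 1.93 CPM over all other day 8 libraries assigned to a group, with 6 of the 10 at 0 in it, and their part in the result was not tested. Col1a1 was at 159 CPM in it and 18.5 CPM in replicate 2, Col1a2 at 153 and 31.8 CPM, Col3a1 at 25.4 and 1.53 CPM, Sparc at 45.9 and 9.42 CPM, and Fn1 at 140 and 14.7 CPM. In treated WT libraries Col1a1 was at 3.32, 22.3 and 7.35 CPM and Fn1 at 4.61, 23.1 and 5.06 CPM, which overlaps replicate 2. Between treated cKO and WT, edgeR called 0 of 29 with replicate 1 and 0 without it, where 4.83% of all genes were called with it, and 17 had an unadjusted p under 0.05. The median log2 fold change was 2.17 with replicate 1 and 0.65 without it. No overlap was seen for 10, against 15.8% of all genes. For the difference in the IFNg response between genotypes, edgeR called 0 of 29 genes, with 0 at an unadjusted p under 0.05, where 0.00% of all genes were called. Its median difference, cKO minus WT, was 1.25 on the log2 scale with replicate 1 and -0.22 without it.

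Among the antibody groups, the cKO cells under the control antibody had the highest median sum of the 32 genes of any BMDM group, 1130 CPM, with a range of 643 to 1222 CPM. Replicate 1, at 643 CPM, had 34380735 counts on genes, against 5295144 and 8985646 in replicates 2 and 3. The part of depth in this was not tested. WT cells under that antibody had 220 to 715 CPM, and cKO cells under the IFNAR1 antibody had 158 to 359 CPM. Col1a1 was at 83.2, 149 and 156 CPM in cKO under the control antibody and at 24.2, 46.4 and 22.5 CPM under the IFNAR1 antibody. Without antibody Col1a1 in cKO was at 44.4, 38.5 and 19.8 CPM, so both other arms of the cKO lay below the control antibody arm. In WT, Col1a1 was at 22.3, 6.54 and 54.4 CPM without antibody, 22.8, 6.23 and 113 CPM with the control antibody and 19.6, 2.76 and 57.4 CPM with the IFNAR1 antibody. Replicate 3 was the highest and replicate 2 the lowest WT library in each arm.

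The other fibrillar genes and Sparc had the same order of arms. Col1a2 in cKO was at 24.5, 20.3 and 11.1 CPM without antibody, 54.0, 94.7 and 108 CPM with the control antibody and 17.2, 28.6 and 13.5 CPM with the IFNAR1 antibody. Col3a1 in cKO was at 8.21, 6.81 and 4.0 CPM, 18.7, 26.4 and 26.0 CPM, and 4.31, 9.36 and 4.67 CPM in these arms. Sparc in cKO was at 13.4, 10.7 and 5.05 CPM, 41.8, 82.4 and 72.6 CPM, and 6.91, 13.8 and 8.77 CPM. The control antibody libraries lay above those of both other arms in all 3 genes. In WT under the control antibody, Col1a2 was at 13.3, 4.02 and 75.2 CPM, Col3a1 at 3.64, 2.21 and 30.3 CPM and Sparc at 7.42, 3.17 and 31.7 CPM, with the spread between replicates seen for Col1a1. Fn1 varied less between WT replicates, at 28.6, 31.5 and 37.5 CPM without antibody and 73.6, 86.0 and 94.6 CPM with the control antibody, and Fn1 in cKO was at 27.3, 36.4 and 28.2 CPM and 61.9, 134 and 146 CPM. With the IFNAR1 antibody Fn1 was at 27.3, 82.2 and 64.1 CPM in WT and 24.5, 72.4 and 78.8 CPM in cKO.

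Between cKO and WT under the control antibody, 28 of 29 genes had a positive fold change, with a median of 2.01 on the log2 scale, and 2 passed the test, where 4.45% of all genes were called. Cald1 was at 4.62, 3.85 and 11.3 CPM in WT and 21.3, 38.3 and 45.6 CPM in cKO (2.43 ± 0.61, adjusted p = 0.034). Cav1, which encodes the caveola coat protein caveolin-1, went the other way, with 91.6, 77.3 and 95.1 CPM in WT and 12.9, 23.3 and 14 CPM in cKO (-2.42 ± 0.55, adjusted p = 0.0195). Groups did not overlap for 21 with cKO above, against 18.3% of all genes, and for 1, Cav1, with cKO below, against 18.5%. There were 23 genes at an unadjusted p under 0.05, and DESeq2 called 6. With 1 library left out in turn, edgeR called 0 to 7. Without antibody, edgeR and DESeq2 called 0 of 29, where edgeR called 7.10% of all genes, with 0 at an unadjusted p under 0.05. Groups did not overlap there for 4 with cKO above and 1 below, against 20.2% and 19.2% of all genes. With the IFNAR1 antibody, edgeR and DESeq2 called 0 of 29, where edgeR called 0.675% of all genes, with 0 at an unadjusted p under 0.05, and the median log2 fold change was 0.29.

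Within the cKO, 28 of 29 genes had a negative fold change of the IFNAR1 antibody over the control antibody, with a median of -2.37 on the log2 scale. EdgeR called 2, where 4.03% of all genes were called, and 23 had an unadjusted p under 0.05, with 11 called by DESeq2. With any of the 6 libraries left out, edgeR called 0 or 1. Loxl1 was at 3.16, 3.61 and 5.08 CPM with the control antibody and 0.254, 0.786 and 0.381 CPM with the IFNAR1 antibody (-3.05 ± 0.77, adjusted p = 0.036). Acta2 was at 38.5, 69.9 and 78.5 CPM and 7.42, 15.6 and 11.2 CPM (-2.45 ± 0.65, adjusted p = 0.0463). There was no overlap for 25 of 29, against 14.5% of all genes. The antibody arms also differed from the cKO without antibody on the control side. Against no antibody, the control antibody gave positive fold changes for 29 of 29 genes (median 2.33), no overlap for 27 against 15.5% of all genes, and 1 call, Fn1 (1.89 ± 0.43, adjusted p = 0.0401), where 1.46% of all genes were called. The IFNAR1 antibody against none gave 16 of 29 positive, a median of 0.03 and 0 calls by edgeR, where 0.145% of all genes were called, with 1 at an unadjusted p under 0.05. The last 3 comparisons share libraries, so their values are not independent.

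In WT, Cav1 was the only gene of the list that the antibodies moved at an adjusted p under 0.05 in edgeR, and with the replicate block 2 were called for the control antibody against none, Cav1 and Fn1. It was at 17.6, 20.2 and 16.7 CPM without antibody, 91.6, 77.3 and 95.1 CPM with the control antibody (2.27 ± 0.54, adjusted p = 0.0208, 8.90% of all genes called) and 7.11, 8.09 and 38.4 CPM with the IFNAR1 antibody (-2.30 ± 0.54 against the control antibody, adjusted p = 0.0173, 9.89% of all genes called). None of the differences between the genotypes' antibody responses passed for the 29 genes in edgeR, with 3 at an unadjusted p under 0.05 for the IFNAR1 against the control antibody and 0 for the control antibody against none, and 0.00% of all genes were called in either. The cKO effect with the IFNAR1 antibody minus that with the control antibody had a median of -1.66 on the log2 scale.

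Markers of mesenchymal cells moved with these arms. Of 20 such genes outside the list, 10 were tested, and 6 were lower in cKO with the IFNAR1 than with the control antibody, among them Prrx1, a transcription factor of limb and stromal mesenchyme (-3.35 ± 0.85), Snai2 (-3.31 ± 0.88), the collagen receptor gene Ddr2 (-3.07 ± 0.83) and Cdh11, which encodes a fibroblast cadherin (-2.96 ± 0.77). None was higher. The 20 genes summed to 118 to 150 CPM in WT and 87.4 to 128 CPM in cKO with the control antibody, and in cKO to between 59.9 and 77.0 CPM with the IFNAR1 antibody, a sum in which Pdpn and Kitl weigh most. Over the 18 libraries Prrx1 ran from 0.0627 to 9.44 CPM and Cdh11 from 0.251 to 16.8 CPM, whereas the fibroblast factor genes Tcf21 and Twist2 were at 0 in 17 of 18. Of 12 macrophage markers none was called in this comparison. Of 39 tested matrix genes outside the list, 2 were higher and 3 lower. On day 7, 2 of 10 mesenchymal markers were higher in cKO, Ddr2 (3.48 ± 0.58) and Cdh11 (2.11 ± 0.47). So were 2 of 35 other matrix genes, Adamts2 and Bmp1, which encode procollagen-cleaving proteases. Of all genes, 0.871% were called higher on that day. The 20 mesenchymal genes summed to 188 to 329 CPM in WT and 70.1 to 85.2 CPM in cKO on day 3, 46.9 to 102 CPM and 71.3 to 98.1 CPM on day 5, and 18.3 to 103 CPM and 50.4 to 126 CPM on day 7, with Tcf21 and Twist2 at 0 in all 18 libraries of the time course. The part of these cells in the results was not tested.

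**Figure D3:**
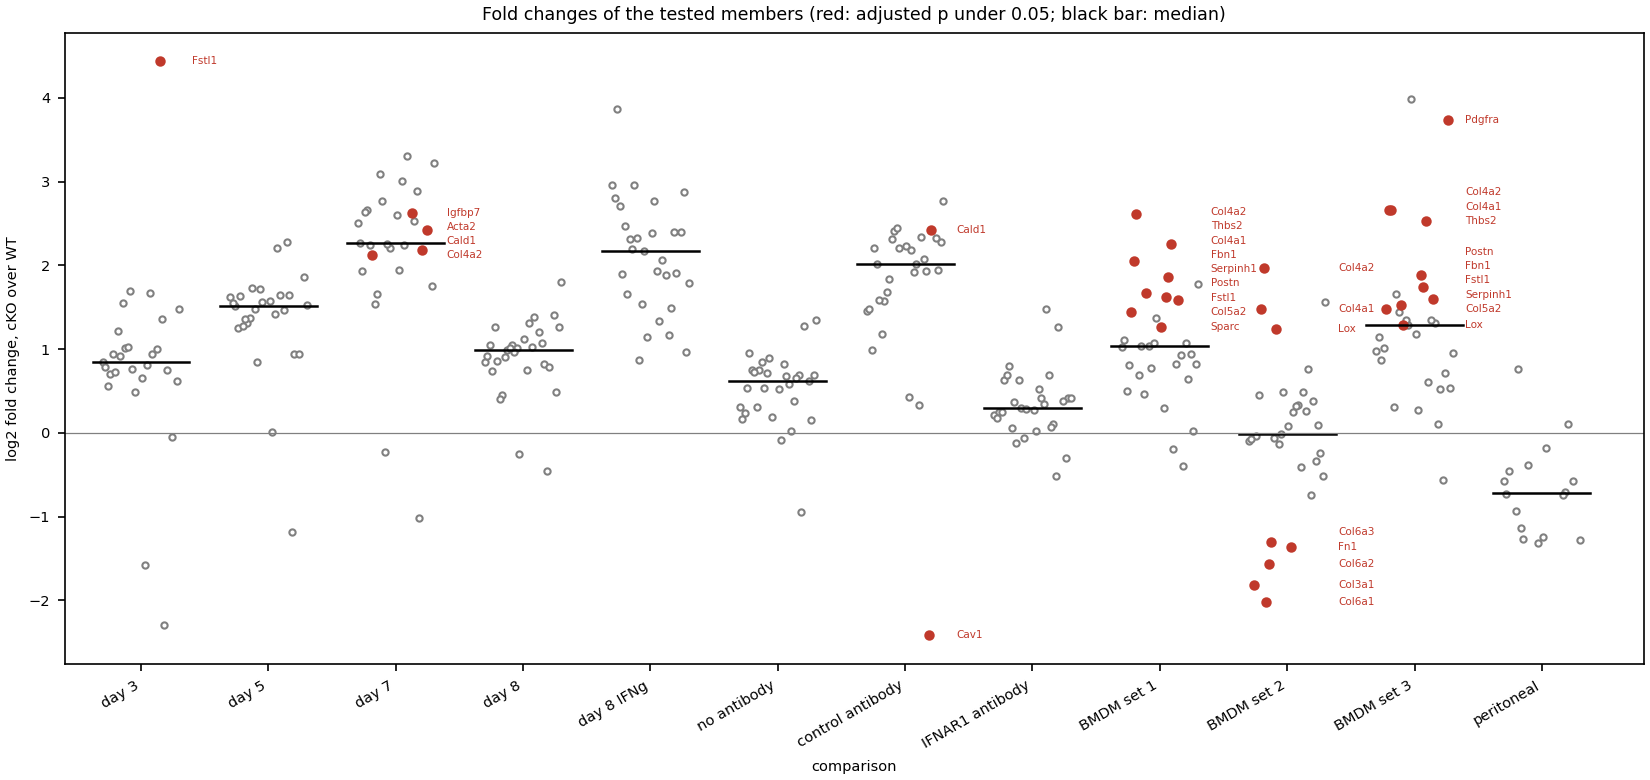
Each point is the log2 fold change of cKO over WT of 1 tested gene, in columns by comparison, with genes at an adjusted p under 0.05 in red and the median as a black bar. Medians run from 2.27 on day 7 and 2.17 after IFNg (0.65 without replicate 1 of the treated cKO libraries) to -0.02 in set 2 and -0.72 in peritoneal macrophages.

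In sets 1 and 3 the genes that passed the test were all higher in cKO, and in set 2 they went both ways. The 8 mural markers, of which 6 were tested, summed to 7.64 to 11.3 CPM in WT and 35.3 to 57.6 CPM in cKO of set 1, 5.21 to 7.03 CPM and 6.45 to 9.34 CPM in set 2, and 7.47 to 9.38 CPM and 31.1 to 44.2 CPM in set 3. Most of the sum in cKO of sets 1 and 3 was Cspg4, the sole marker called there (2.61 ± 0.40 and 2.65 ± 0.41), and the part of such cells was not tested. Col4a2 was at 2.12, 0.688 and 1.03 CPM in WT and 8.39, 6.70 and 7.87 CPM in cKO of set 1, 4.09, 4.06 and 2.32 CPM against 15.7, 12.8 and 12.9 CPM in set 2, and 1.15, 0.974 and 1.22 CPM against 7.42, 7.16 and 6.67 CPM in set 3. Col4a1 was at 2.25, 0.313 and 1.33 CPM against 4.49, 5.26 and 5.65 CPM, 4.30, 4.26 and 2.42 CPM against 10.9, 9.46 and 10.4 CPM, and 0.877, 0.273 and 0.869 CPM against 3.47, 5.30 and 4.23 CPM. Every cKO library exceeded every WT library of its set for both collagen IV genes. Log2 fold changes of Col4a2 were 2.61 ± 0.39, 1.97 ± 0.33 and 2.66 ± 0.39 in sets 1, 2 and 3 (adjusted p = 1.21e-05, 8.72e-05 and 8.72e-06), and those of Col4a1 were 2.05 ± 0.42, 1.48 ± 0.35 and 2.66 ± 0.45 (adjusted p = 0.000452, 0.00323 and 5.32e-05). Col4a1 and Col4a2 lie head to head on chromosome 8 of the mouse, and their annotated ends overlap by 22 bases, so that unstranded reads there cannot be assigned to either.

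Set 1 had 9 of 31 genes higher and 0 lower in cKO by edgeR, where 34.7% of all genes were called and 18% were called higher. Thbs2, which encodes thrombospondin-2, was at 0.997, 0.438 and 0.542 CPM in WT and 2.65, 2.32 and 4.33 CPM in cKO (2.26 ± 0.47, adjusted p = 0.000595). Fbn1 was at 2.47, 0.469 and 0.296 CPM in WT and 4.19, 2.65 and 4.76 CPM in cKO (1.86 ± 0.50, adjusted p = 0.00539). Postn was at 3.03, 0.688 and 1.92 CPM against 5.14, 4.80 and 6.91 CPM (1.63 ± 0.46, adjusted p = 0.00751). Serpinh1 was at 1.52, 0.313 and 1.23 CPM against 2.82, 2.51 and 3.97 CPM (1.67 ± 0.54, adjusted p = 0.0191), and Fstl1 at 2.17, 0.344 and 0.493 CPM against 3.47, 2.61 and 2.71 CPM (1.59 ± 0.49, adjusted p = 0.0141). In these 5 genes no WT library reached the lowest cKO library. Col5a2 was at 2.51, 0.50 and 1.23 CPM against 3.83, 3.36 and 3.97 CPM (1.44 ± 0.47, adjusted p = 0.0185), and Sparc, at 3.68, 1.09 and 2.91 CPM against 5.54, 4.96 and 7.44 CPM, had 1.27 ± 0.46 (adjusted p = 0.0338). Groups did not overlap for 13, against 21.3% of all genes. Replicate 1 of WT, the highest of its group for 28 of 31 genes, held the count down, since without it 17 were called.

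Col1a1 was not called in any set. It was at 17.5, 7.22 and 9.76 CPM in WT and 25.7, 15.3 and 28.7 CPM in cKO of set 1 (1.03 ± 0.42, adjusted p = 0.0634), 33.1, 47.9 and 18.1 CPM against 39.1, 21.2 and 32.5 CPM in set 2 (-0.10 ± 0.40, adjusted p = 0.907), and 6.01, 8.77 and 9.12 CPM against 18.8, 14.9 and 13.3 CPM in set 3 (0.98 ± 0.44, adjusted p = 0.0841). Groups overlapped in sets 1 and 2 and not in set 3. Col1a2 was at 10.7, 3.38 and 6.55 CPM against 16.8, 10.3 and 16.8 CPM, 21.2, 33.9 and 10.6 CPM against 28.5, 12.9 and 21.5 CPM, and 3.90, 4.95 and 5.47 CPM against 12.6, 10.3 and 8.65 CPM. It showed the same overlap as Col1a1.

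Set 3 had 10 of 31 genes higher and 0 lower in cKO, where 34.9% of all genes were called and 16.9% were called higher, and groups did not overlap for 24, against 20.8%. Thbs2 was at 0.393, 0.390 and 0.391 CPM in WT and 2.11, 2.73 and 2.03 CPM in cKO (2.53 ± 0.51, adjusted p = 0.000404). Postn was at 0.846, 0.896 and 1.74 CPM against 3.95, 4.56 and 4.12 CPM (1.89 ± 0.48, adjusted p = 0.00362). Fbn1, at 0.574, 1.29 and 0.999 CPM against 3.05, 2.94 and 3.38 CPM, had 1.74 ± 0.51 (adjusted p = 0.00935). WT libraries of this set were close to each other and low, with the 32 genes summing to 45.0 to 50.6 CPM. Fstl1 was at 1.06, 0.779 and 0.608 CPM against 2.30, 2.70 and 2.59 CPM (1.60 ± 0.49), Serpinh1 at 0.695, 0.974 and 0.912 CPM against 2.30, 3.11 and 2.03 CPM (1.53 ± 0.55), and Col5a2 at 0.846, 1.052 and 1.22 CPM against 3.05, 3.27 and 2.33 CPM (1.48 ± 0.48). The collagen crosslinking gene Lox had 1.29 ± 0.44 (adjusted p = 0.0257). Pdgfra, which encodes a receptor of stromal growth factors, was called (3.74 ± 1.0, adjusted p = 0.00653) from levels of 0.0302, 0 and 0 CPM in WT against 0.324, 0.169 and 0.152 CPM in cKO, so its fold change depends on the prior count of the fit.

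In set 2, 3 of 31 genes were higher in cKO, where 9.74% of all genes were called higher, and 5 were lower, where 11.3% were called lower. The higher ones were both collagen IV genes and Lox, which was at 2.33, 3.53 and 1.79 CPM in WT and 9.05, 3.41 and 5.71 CPM in cKO (1.24 ± 0.37, adjusted p = 0.0179), with overlap. Fn1 was at 42.3, 62.3 and 45.8 CPM in WT and 24.2, 12.4 and 22.0 CPM in cKO (-1.36 ± 0.34, adjusted p = 0.00504), without overlap. Col3a1 was at 2.45, 2.89 and 0.729 CPM in WT and 1.09, 0.373 and 0.237 CPM in cKO (-1.82 ± 0.54, adjusted p = 0.016). Col6a1 was at 4.25, 5.88 and 1.39 CPM against 1.29, 0.896 and 0.657 CPM (-2.02 ± 0.48, adjusted p = 0.00299). Col6a2, at 3.06, 3.40 and 0.696 CPM against 1.09, 0.647 and 0.684 CPM, had -1.57 ± 0.54 (adjusted p = 0.0382), and Col6a3, at 4.93, 5.96 and 1.09 CPM against 2.22, 1.07 and 1.60 CPM, had -1.30 ± 0.45 (adjusted p = 0.0426). In Col3a1, Col6a2 and Col6a3, replicate 3 of WT lay within the cKO range. The same replicate was the lowest WT library for 28 of 31 genes.

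The cKO effect differed between sets by a test of the difference itself. In set 2 compared with set 1 it was lower for Col6a1, Col3a1, Thbs2 and Fn1, 4 of 31, where 20.0% of all genes were called. In set 3 compared with set 2 it was higher for 7 of 31, where 19.5% of all genes were called, namely these 4, Col6a2, Col6a3 and Pdgfra. Between sets 3 and 1 edgeR called 0 of 31, with 2 at an unadjusted p under 0.05, where 0.00% of all genes were called. The titles of the sets differ in wording only, but the count files list 55536 genes in sets 1 and 2 and 54146 in set 3. What else set them apart cannot be told apart from their number. Without replicate 2 of WT in set 2 the count over all tests of this kind, which also compare days, antibodies and IFNg, was 2 in place of 11.

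Compared with the 9 cKO libraries of the 3 sets, the Sting and Mavs double KO had most of the list higher. The labels tie no set to a double KO, so culture and genotype cannot be told apart. In the order of the samples, the Sting, Mavs and Irf7 double KO follow sets 1, 2 and 3 in turn. The paper plots each double KO with WT and cKO samples, without naming a set. Count files of the Sting and Mavs double KO list 55536 genes, as do those of sets 1 and 2. Those of the Irf7 double KO list 54146, as do those of set 3. Col1a1 was at 95.8, 98.6 and 121 CPM in the Sting double KO, above every cKO library of the sets, which ran from 13.3 to 39.1 CPM (2.23 ± 0.30, adjusted p = 6.01e-06). In the Mavs double KO Col1a1 was at 158, 44.4 and 44.3 CPM (1.88 ± 0.30, adjusted p = 0.000187). Col3a1 was at 9.19, 10.2 and 12.3 CPM in the Sting double KO (3.47 ± 0.35, adjusted p = 2.23e-07) and 5.19, 2.14 and 2.08 CPM in the Mavs double KO. Both were above the cKO libraries of the sets for Col3a1, which ran from 0.237 to 1.61 CPM.

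Of 31 tested genes, 24 were higher in the Sting double KO, where 18.9% of all genes were called higher, and 1 lower, Col4a2 (-0.74 ± 0.28, adjusted p = 0.04), where 17.2% were called lower. Col1a2 was at 57.1, 56.1 and 66.1 CPM, Sparc at 18.7, 22.9 and 26.5 CPM and Fn1 at 38.2, 39.0 and 36.5 CPM, with log2 fold changes of 2.02 ± 0.32, 1.95 ± 0.30 and 1.0 ± 0.27. All 3 replicates lay close together. In the Mavs double KO 28 of 31 were higher, where 5.55% of all genes were called higher, although 9 were called against the cKO of set 2 alone, and the first replicate was the highest of its group for 31 of 31 genes. Col1a2 was at 123, 33.1 and 34.1 CPM in it, Sparc at 43.1, 14.7 and 11.9 CPM and Fn1 at 94.9, 33.7 and 34.1 CPM. The chemokine gene Cxcl12, a product of marrow stroma, was at 9.90, 2.98 and 3.16 CPM (2.88 ± 0.39, adjusted p = 2.5e-05), and Lox at 40.3, 14.8 and 14.1 CPM (2.63 ± 0.26, adjusted p = 5.07e-07). Without the first replicate 21 were called and the median log2 fold change went from 2.07 to 1.32.

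The Irf7 double KO was near the cKO. Col1a1 was at 26.3, 17.7 and 17.2 CPM, Col1a2 at 19, 10.6 and 13.3 CPM, Col3a1 at 1.52, 0.687 and 0.861 CPM, Sparc at 7.57, 5.14 and 5.51 CPM and Fn1 at 16.7, 14.5 and 16.2 CPM, all within the range of the cKO libraries. Col4a2, at 3.34, 5.11 and 5.89 CPM, was the sole call (-0.92 ± 0.28, adjusted p = 0.0363), where 9.85% of all genes were called. The call was lost against the cKO of set 1 alone and of set 3 alone, as given below. The median log2 fold change over 31 genes was -0.14.

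In the Sting and Mavs double KO, other matrix genes were called higher more often than lower, and mesenchymal markers went both ways. In the Mavs double KO, 20 of 41 tested matrix genes outside the list were higher and 1 lower, and 7 of 12 mesenchymal markers were higher and 1 lower, led by Prrx1 (2.99 ± 0.30), the BMP antagonist gene Grem1 (2.82 ± 0.34), Cdh11 (2.40 ± 0.33) and Ddr2 (2.02 ± 0.32). Of all genes, 5.55% were called higher and 3.24% lower in the Mavs double KO. In the Sting double KO, 24 of 41 matrix genes were higher and 3 lower, and 4 of 12 mesenchymal markers were higher and 2 lower. There 18.9% of all genes were called higher and 17.2% lower. The 20 mesenchymal genes summed to 65.9 to 138 CPM in the cKO libraries of the sets, 47.6 to 69.1 CPM in the Sting double KO and 87.0 to 159 CPM in the Mavs double KO, so that the sum, led by Kitl, did not follow the calls. Tcf21 was at 0 in 26 of 27 libraries of the sets and Prrx1 in none. Of 12 macrophage markers, 7 were higher in the Sting and 2 in the Mavs double KO. In cKO against WT, 11 of 41 other matrix genes were higher in set 1, 4 in set 2 and 9 in set 3, where 18%, 9.74% and 16.9% of all genes were called higher, and 5, 6 and 4 were lower. Of 12 mesenchymal markers, 3, 0 and 2 were higher and 1, 1 and 0 lower. The part of other cells in these differences was not tested.

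The 11 comparisons of cKO with WT BMDMs share no library. Those of 1 experiment share the fit, and the labels do not say whether their mice were the same. They cannot be counted as 11 independent repeats. Across them, the members fell into those that always leaned one way and those that did not. Col4a2 had a positive fold change in 11 of 11 and was called higher in 4. Col4a1 and Fstl1 were positive in 11 of 11 and called higher in 3. Cald1, Col5a2, Fbn1, Postn and Thbs2 were positive in 11 of 11 and called in 2 each, and Igfbp7 and Sparc in 1 each. Cxcl12 and Timp3 were positive in 11 of 11 without a call. Serpinh1 and Lox were positive in 10 of 11 and called in 2 each, and Acta2 was positive in 10 of 11 and called in 1. Col1a1 and Col1a2 were positive in 10 of 11 with medians of 0.98 and 1.11 and no call, as were Bgn, Col5a1 and Pdgfrb, whereas Loxl1 was positive in 9 of 11 without a call. Col3a1, Col6a1, Col6a2 and Fn1 were called once, lower, in set 2, as was Col6a3. Cav1 was positive in 2 of 11, with a median of -0.75 and 1 call, lower. Tagln, the gene of the smooth muscle protein transgelin, was tested in 3, Dcn in 5, Mgp, which encodes the calcification inhibitor matrix Gla protein, in 6 and Pdgfra in 8, and Lum in none.

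To see whether the genes move together beyond genotype and treatment, each gene's deviation from its group mean of log2 CPM was set against the mean deviation of the other members over the libraries of an experiment. The median Pearson r was 0.85 over 18 libraries in the time course, 0.95 over 10 on day 8, 0.97 over 18 in the antibody experiment and 0.85 over 27 in the sets. Median Spearman rho was 0.81, 0.93, 0.93 and 0.80. An r over 0.7 was reached by 20 of 27, 28 of 29, 26 of 29 and 25 of 31 genes. Among all genes tested it was reached by 1.27%, 11.3%, 5.54% and 0.614%. After leaving out the 2 libraries farthest from the median, the median r was 0.78, 0.94, 0.95 and 0.78. These values are descriptions across libraries, which share culture and depth as well as group.

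Roles differed in how closely they followed. The 5 fibrillar chains had median r of 0.91, 0.98, 0.97 and 0.94 in the 4 BMDM experiments, and the folding and crosslinking genes had 0.85, 0.98, 0.98 and 0.91. The collagen IV chains had 0.45, 0.85, 0.83 and 0.70. Lox (-0.53) and Cav1 (-0.16) ran against the others in the time course, where Lox was the exception among the crosslinking genes. In the antibody experiment Fn1 had 0.19, Cav1 0.52 and Mgp 0.55, and in the sets Mgp had -0.25. For lists outside the 32 genes, r was taken with the mean of all members tested. Other matrix genes had 0.19, 0.67, 0.60 and 0.53, other mesenchymal markers 0.24, 0.85, 0.68 and 0.47, endothelial markers 0.12, -0.26, 0.26 and 0.30, and macrophage markers -0.38, 0.04, 0.20 and 0.18.

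**Figure D4:**
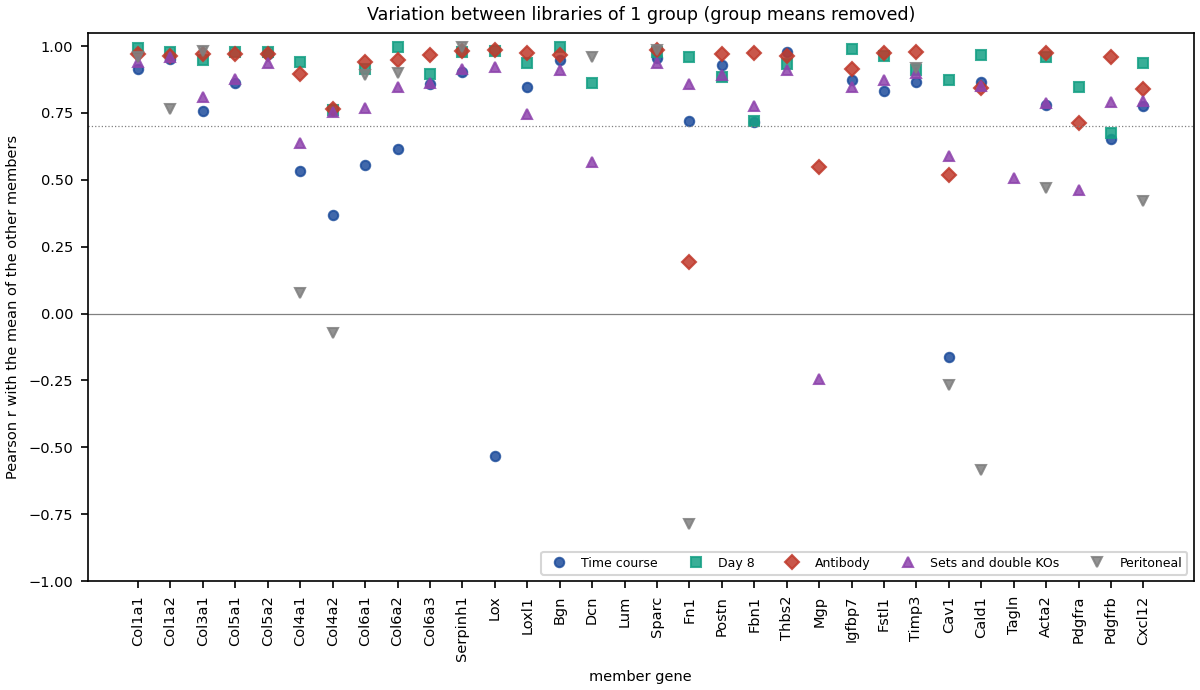
Each column is 1 gene, and each point gives, for 1 experiment (colour and shape), the Pearson r of the gene's deviation from its group mean with the mean deviation of the other genes of the list, with a dotted line at 0.7. Most points lie above the dotted line in the BMDM experiments, with Lox and Cav1 below 0 in the time course and Fn1 at 0.19 in the antibody experiment.

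In many groups 1 library was the highest for most of the list. In others none was, as in WT of set 3, with 12, 5 and 14 of 31 genes by replicate. In cKO of set 3 the replicates had 14, 15 and 2. In WT cells of the time course, replicate 2 was the highest for 20, 24 and 23 of 27 genes on the 3 days in turn. In WT cells of the antibody experiment, replicate 3 was the highest for 25, 27 and 28 of 29 genes without antibody, with the control antibody and with the IFNAR1 antibody. In cKO cells of the time course the highest library was replicate 2, 3 and 1 in turn, for 20, 23 and 21 of 27 genes. The fold changes of cKO over WT rest on these libraries. Without replicate 3 of WT under the control antibody the median log2 fold change went from 2.01 to 3.32, and without replicate 3 of WT under the IFNAR1 antibody from 0.29 to 1.62. On day 8 it went from 0.99 to 0.33 without replicate 2 of cKO and to 1.81 without replicate 2 of WT.

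The genes outside the list with the closest course were named in each BMDM experiment. In the time course the 12 most alike of 12796 genes began with Tnc, which encodes tenascin-C, and Serpinf1, both with r of 0.96, followed by Enah, Ccn2 (0.95), Fat1, Aebp1, Dpysl3, Col12a1, Hspg2, Col5a3, Dusp7 and Cyp1b1. In the antibody experiment they began with the matricellular genes Ccn1 (0.99), Col12a1 and Ccn2, followed by Pappa, Aebp1, Tnc, Fat1, Col8a1, Hspg2, Dpysl3, Myl9 and Fscn1. In the sets Tnc (0.94), Col12a1, Serpinf1 and Bmp1 led, followed by Cyp1b1, Hspg2, Aebp1, Fat1, Timp1, Dpysl3, Ltbp2 and Sema7a. On day 8, where many genes were alike, Prrx1 led with 0.998, followed by Cnp, Plbd2 and Ptx3.

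Promoters are shown for 3 members that were among the closest followers. Their RefSeq window of 250 bases before the start holds no annotated exon, and any part of it in their common course was not tested. Coordinates are of GRCm38.p6 and sequences are from RefSeq, printed 5′ to 3′ on the strand of the gene. Capitals mark the motifs searched on both strands, which were CCAAT, read as ATTGG on the other strand, GGGCGG, read there as CCGCCC, and TATAA, read there as TTATA. Serpinh1 lies on the minus strand, with its window at chr7:99353240-99353489. Bgn, which encodes the proteoglycan biglycan, lies on the plus strand with its window at chrX:73483351-73483600, and Col3a1 on the plus strand at chr1:45311288-45311537.
Serpinh1: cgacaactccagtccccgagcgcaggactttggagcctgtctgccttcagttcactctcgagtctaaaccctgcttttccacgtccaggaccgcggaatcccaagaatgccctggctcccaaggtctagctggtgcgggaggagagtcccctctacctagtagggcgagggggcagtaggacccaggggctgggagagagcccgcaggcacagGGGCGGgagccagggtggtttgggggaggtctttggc
Bgn: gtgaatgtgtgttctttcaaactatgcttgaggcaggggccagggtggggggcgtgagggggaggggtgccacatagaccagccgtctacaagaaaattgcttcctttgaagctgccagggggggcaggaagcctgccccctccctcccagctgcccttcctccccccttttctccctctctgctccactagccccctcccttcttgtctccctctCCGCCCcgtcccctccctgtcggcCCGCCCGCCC
Col3a1: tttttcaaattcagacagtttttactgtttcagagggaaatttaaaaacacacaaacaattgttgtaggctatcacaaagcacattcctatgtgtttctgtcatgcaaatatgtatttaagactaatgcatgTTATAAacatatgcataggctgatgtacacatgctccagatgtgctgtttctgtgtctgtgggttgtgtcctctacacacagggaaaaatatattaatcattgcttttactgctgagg
Median r over the experiments was 0.979 for Serpinh1, 0.958 for Bgn and 0.950 for Col3a1. The Serpinh1 window holds GGGCGG 37 bases before the start. The Bgn window holds CCGCCC at 34, 10 and 6 bases before it, and the last 2 overlap. The Col3a1 window holds TATAA at 117 bases before the start, overlapping TTATA of the other strand at 118. No motif is shared by all 3 windows. Of 22 members with a window, 12 hold GGGCGG, 6 TATAA and 5 CCAAT, and among all 32851 promoters of that length the shares are 32.7%, 22.8% and 33.8%. A match of letters is a description of the window only.

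**Figure D5:**
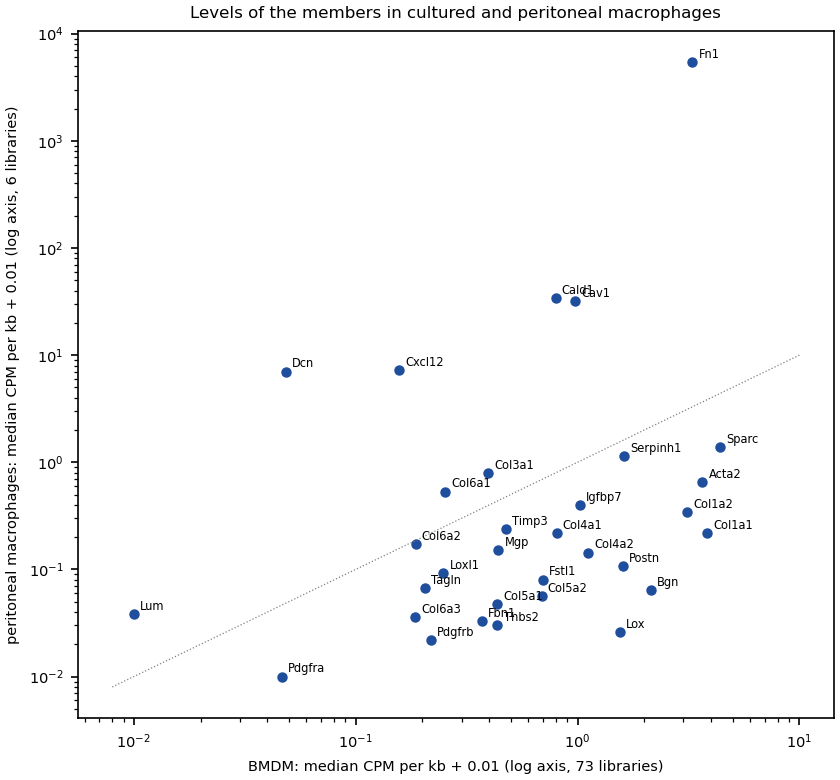
Each point is 1 gene, with the median CPM per kb plus 0.01 over 73 BMDM libraries on the horizontal axis and over 6 peritoneal libraries on the vertical axis, both log axes, and a dotted line where they are equal. Fn1 lies highest, at 5437 CPM per kb in peritoneal and 3.28 CPM per kb in BMDM libraries, and Cald1, Cav1, Cxcl12 and Dcn lie above the line while Col1a1, Lox and Bgn lie below it.

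Peritoneal macrophages held another selection of these genes. The methods give them another library kit (SMART-Seq v4) than the labels do, so tissue and preparation cannot be told apart, and levels are given side by side with no test. Fn1 was at 20759, 55182 and 61747 CPM in WT and 31091, 42741 and 47670 CPM in cKO, where no BMDM library exceeded 146 CPM. Cald1 was at 124 to 196 CPM and Cav1 at 39.9 to 101 CPM. Per kilobase, the order of median levels was Fn1, Cald1, Cav1, Cxcl12 and Dcn, against Sparc, Col1a1, Acta2, Fn1 and Col1a2 in BMDMs. The collagens changed places, since Col3a1 exceeded Col1a1 per kilobase by a median ratio of 3.37 over the 6 peritoneal libraries, with a range of 2.08 to 5.18, and stood at 0.0914 of it in BMDMs, with a range of 0.00775 to 0.726. The ratio of Dcn to Col1a1 was 29.4 against 0.00572. Ranges of both ratios did not overlap between the tissues.

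Few of the peritoneal genes separated the genotypes. Col1a1 was at 4.16, 1.06 and 1.0 CPM in WT and 1.41, 0.369 and 2.47 CPM in cKO. Col1a2 was at 4.05, 2.55 and 0.319 CPM against 1.58, 0.581 and 1.95 CPM, Col3a1 at 12.0, 3.90 and 1.96 CPM against 4.84, 1.79 and 6.24 CPM, and Sparc at 9.33, 1.99 and 1.14 CPM against 1.75, 0.792 and 2.73 CPM. Groups overlapped in these genes, with replicate 1 the highest WT library in each. Cxcl12 was at 65.2, 47.9 and 69.0 CPM in WT and 21.5, 20.7 and 33.0 CPM in cKO, without overlap, at a log2 fold change of -1.29 ± 0.24 and an adjusted p of 0.0506. EdgeR called 0 of 16 tested genes, where 0.971% of all genes were called, with 3 at an unadjusted p under 0.05, 1 by DESeq2 and 1 with the replicate block. For 3 genes, all cKO libraries lay below all WT libraries, against 6.50% of all genes.

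In the peritoneal libraries the list fell into those that moved with Serpinh1 and Sparc and those that did not. Over 6 libraries, r with the other members was 0.998 for Serpinh1, 0.987 for Sparc and 0.96 for Col1a1 and Dcn, whereas Fn1 had -0.79, Cald1 -0.59 and Cav1 -0.27. The median over 16 genes was 0.83 and the median rho 0.77, and with the 2 farthest libraries left out the median r was 0.66 over 4. Of 10 mesothelial and epithelial markers, 6 were tested, and all 6 had r over 0.7 with the members, where 12.3% of all genes had. So had 5 of 12 housekeeping genes. The closest genes outside the list were Ing2, Aamp and Asnsd1, with r of 0.998, 0.995 and 0.993. Among the mesothelial and epithelial markers, levels were low. Msln, which encodes mesothelin, was at 0.897 to 9.78 CPM, Upk3b at 0.792 to 8.32 CPM and Krt19 at 1.21 to 15.5 CPM, at 0 in no peritoneal library. The 10 markers summed to 14 to 49.6 CPM in WT and 5.33 to 20.0 CPM in cKO, with Wt1 and Bnc1 at 0 in 1 of 6 each. None was called between genotypes. Their part in the levels of the list was not tested. In BMDMs of the sets Wt1 and Bnc1 were at 0 in all 27 libraries.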

How the data were processed

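RNA-seq of 81 libraries was analysed from the tables of read counts per gene that the authors deposited, 1 per library. Per the submitters' processing notes, reads were trimmed with cutadapt and aligned with STAR to mm10, and versions are not given in the sources used here. The column of unstranded counts was used, since the library kit does not mark strand, and 12 of the 32 genes overlap a gene on the other strand, from which reads cannot be told apart there. Rows for unmapped, multimapped, ambiguous and unassigned reads were left out. Groups follow the GEO titles, and 2 day 8 libraries whose titles and library names conflict were left unassigned.

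The 32 genes, the lists of other genes and the comparisons were chosen with earlier results of these data known. Each of 5 experiments (time course, day 8, antibody, sets with double KOs, peritoneal) was fitted as a whole. Genes passed filterByExpr with a minimum count of 10 and a minimum total of 15, which kept 27, 29, 29, 31 and 16 of the 32 genes in that order, and a gene that passed may owe it to the group where it is high. Counts were scaled by TMM and tested with edgeR 4.0.16 (R 4.3.3, limma 3.58.1) by glmQLFit and glmQLFTest on group means, two-sided, with Benjamini-Hochberg adjustment over 15955, 13075, 17191, 18083 and 12361 genes, and a call is an adjusted p under 0.05. The script was tested on simulated counts. SE is the log2 fold change divided by the root of F. CPM values are counts scaled to library size by TMM, and the precision of each is limited by counts on genes of 3614967 or more per library. Levels between genes were compared per kb of the transcript with the longest coding sequence (GENCODE M21). Co-movement used log2 CPM with a prior count of 2.

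Col1a1, Col1a2, Col3a1, Sparc and Fn1 are given by library in each experiment, as is any gene of the list called in a comparison of cKO and WT at a mean log2 CPM of 0 or more, up to 8 per comparison by size of change. Other called genes are given by fold change, for lists of other genes up to 4 by size (1 gene is not reported here), and for genes alike in course the 12 of highest r at a mean log2 CPM of 0 or more. Libraries compared with their own group differed by more than sampling noise in all 77 pairs (chi-square per degree of freedom 3.33 or more). Same-numbered libraries were taken as pairs where the correlation of their deviations exceeded 0.1 in every pair, which held on day 3 (0.126 to 0.419), day 7 (0.153 to 0.467), in cKO from day 3 to 7 (0.138 to 0.415) and day 5 to 7 (0.233 to 0.492), for IFNg in WT (0.335 to 0.451), for the control antibody against none in WT (0.145 to 0.284), for the IFNAR1 antibody against none in cKO (0.201 to 0.322) and in peritoneal cells (0.144 to 0.194). Libraries of different numbers were not correlated for reference, so this rule does not establish pairs. The replicate block has the same effect in all groups of an experiment, although same-numbered libraries ran apart in some. For WT day 5 and cKO day 7, r was -0.397, -0.302 and -0.172. Alternatives were DESeq2 1.42.0, size factors of the RLE method, no filter, stranded counts, the replicate block, only the groups compared, other cKO sets as reference, other placings of the conflicting libraries, and each library left out in turn.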

Additional observations from a re-analysis of the deposited data

Results flagged for a closer look

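For some genes the effect of the cKO differed between BMDM sets by edgeR's test of the difference itself, at an adjusted p under 0.05 over all genes tested and with 3 libraries in each group. The effect in set 2 minus that in set 1 was -2.71 on the log2 scale for Col6a1 (adjusted p = 0.0183), -2.32 for Col3a1 (adjusted p = 0.0403), -1.92 for Thbs2 (adjusted p = 0.0293) and -1.65 for Fn1 (adjusted p = 0.0186). The effect in set 3 minus that in set 2 was 3.98 for Pdgfra (adjusted p = 0.02), 3.23 for Col6a2 (adjusted p = 0.0242), 2.75 for Col6a3 (adjusted p = 0.016), 2.69 for Col3a1 (adjusted p = 0.019), 2.33 for Col6a1 (adjusted p = 0.0488), 2.20 for Thbs2 (adjusted p = 0.019) and 1.63 for Fn1 (adjusted p = 0.0201). Of all genes, 20.0% were called for set 2 minus set 1 and 19.5% for set 3 minus set 2. Such differences were thus not particular to the list. Most of the calls were lost without replicate 2 of WT in set 2, as given above. Both comparisons share the libraries of set 2, so their values are not independent.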

How the results depend on the processing

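Counts of genes called were the values that moved most with the processing, and the cause was not tested. Shares of all genes called under these settings are not given, so the counts cannot be set against the shares above. Without the filter on low counts, edgeR called 5, 7 and 23 genes of the list on days 3, 5 and 7, 6 in WT and 8 in cKO from day 3 to 7, 11 between genotypes on day 8, 8 for IFNg in WT, 2 in peritoneal cells, 8 under the control antibody, 17 for the IFNAR1 against the control antibody in cKO, 19 in set 1, 23 in set 3 and 2 in the Irf7 double KO, and 44 over all differences of differences (11 with it). DESeq2 called 4, 4 and 20 on days 3, 5 and 7, 6 from day 3 to 7 in WT, 1 in peritoneal cells, 6 under the control antibody, 11 between antibodies in cKO and 16 in set 3. With only the groups compared in the model, edgeR called 6 on day 3, 0 on day 7, 0 in WT and 9 in cKO from day 3 to 7, 2 without antibody, 19 under the control antibody, 19 between antibodies in cKO, 15 in set 1, 21 in set 3 and 2 in the Irf7 double KO.

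Where same-numbered libraries deviated together over all genes, the replicate block called 3 genes on day 3 and 18 on day 7. It called 9 in cKO from day 3 to 7 and 1 in peritoneal cells. In comparisons chosen after seeing the data, it called 2 for the control antibody against none in WT. It called 0 for the IFNAR1 antibody against none in cKO and 0 in cKO from day 5 to 7. Besides those given above, the block changed no call among the genes given by library in these comparisons. Where libraries shared only a number, the block gave 1 on day 5, 6 in WT from day 3 to 7, 7 under the control antibody and 8 between antibodies in cKO. A block within genotype, chosen after seeing the data, gave 6 in WT and 11 in cKO from day 3 to 7 and 24 between antibodies in cKO. Stranded counts gave 1 in peritoneal cells, 4 between antibodies in cKO and 6 differences of differences, and RLE size factors gave 1 in peritoneal cells. With the conflicting libraries placed by title, IFNg in WT had 0 calls. The Mavs double KO had 9 calls against the cKO of set 2, and the Irf7 double KO had 0, 3 and 0 against sets 1, 2 and 3. Fn1 on day 5 turned from 0.01 to -0.083 with stranded counts and to -0.000334 with only the groups compared.

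Leaving out 1 library at a time gave 0 to 1 calls on day 5 (1 without cKO replicate 1 or 2), 1 to 9 on day 7 (9 without WT replicate 2, 2 without WT replicate 3, cKO replicate 1 or cKO replicate 2, and 1 without cKO replicate 3), 1 to 6 in WT from day 3 to 7 (6 without WT replicate 2 of day 7, 5 without WT replicate 1 of day 3, 1 without WT replicate 3 of day 7), and 1 to 4 in cKO (1 without cKO replicate 1 or 3 of day 3, or 2 or 3 of day 7). It gave 0 to 7 under the control antibody (7 without WT replicate 3, 0 without WT replicate 1 or 2 or cKO replicate 3), 0 to 1 under the IFNAR1 antibody (1 without WT replicate 3) and 0 to 1 between antibodies in cKO (1 without cKO replicate 1 of the control antibody). For IFNg in cKO the count was 1 without treated replicate 1, an alternative chosen after seeing the data. Counts ran from 4 to 17 in set 1 (17 without WT replicate 1, 4 without WT replicate 2, 6 without WT replicate 3), 4 to 7 in set 2 (4 without WT replicate 1, 5 without cKO replicate 3), 6 to 11 in set 3 (6 without WT replicate 1), 22 to 25 in the Sting, 21 to 28 in the Mavs and 0 to 1 in the Irf7 double KO, and 2 to 18 over differences of differences (2 without WT replicate 2 of set 2, 18 without WT replicate 1 of set 1). Median fold changes moved too, as for IFNg in WT from -0.52 to 0.31 without untreated replicate 2.

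Single genes that passed no test turned direction with 1 library left out. Log2 fold changes ran from -0.39 to 0.27 for Col1a1, -0.39 to 0.39 for Col1a2 and -0.22 to 0.49 for Sparc in set 2. Under the IFNAR1 antibody they ran from -0.31 to 1.44 for Col1a1, -0.34 to 1.43 for Col1a2, -0.28 to 1.81 for Col3a1, -0.32 to 0.39 for Fn1 and -0.21 to 1.62 for Sparc, and without antibody from -0.16 to 1.25 for Col1a1, -0.27 to 1.03 for Col1a2, -0.20 to 1.203 for Col3a1 and -0.23 to 0.023 for Fn1. In peritoneal cells they ran from -1.12 to 0.35 for Col1a1, -0.94 to 0.53 for Col3a1, -0.53 to 0.077 for Fn1 and -1.76 to 0.12 for Sparc, and on day 5 from -0.41 to 0.48 for Fn1. The 149 results for single genes include Col1a1, Col1a2, Col3a1, Sparc and Fn1 in comparisons of cKO and WT, called or not. Of the 149, 38 lost their call with some library left out, a larger share of those that had a call. With 2 or 3 libraries in a group and levels often under 1 CPM, depth and replicate number limit what these tests can call.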

Other observations

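Genes of macrophages that bind or take up collagen were tested beside those that make it. Of 16 collagen receptor, uptake and protease genes, 8 were higher and 2 lower in cKO of set 1, 2 higher and 6 lower in set 2, and 8 higher and 4 lower in set 3, where 34.7%, 21.0% and 34.9% of all genes were called. Itga1, the gene of a collagen-binding integrin chain, had log2 fold changes of 2.26 ± 0.26, 2.55 ± 0.28 and 1.97 ± 0.25 in the sets, each called by edgeR. Mrc1, which encodes the mannose receptor, went the other way with -1.56 ± 0.14 in set 1 and -1.71 ± 0.14 in set 3, both called. On days 3, 5 and 7, edgeR called 0 of the 16, with 3, 3 and 9 in turn at an unadjusted p under 0.05. Of 16 genes of the TGF-beta pathway, 9 were higher and 2 lower in set 1, 4 higher and 3 lower in set 2 and 9 higher and 2 lower in set 3.

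Neutrophil granule genes had another order among the double KOs. Of 9 tested, 6 were higher in cKO in sets 1 and 3 and 2 in set 2, where 18%, 16.9% and 9.74% of all genes were called higher. In the Mavs and Irf7 double KO 7 of 9 were lower than in the cKO of the sets, where 3.24% and 5.5% of all genes were called lower, and in the Sting double KO 2 were higher and 1 lower. The list described above was higher in the Mavs double KO and near the cKO in the Irf7 double KO.

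The 2 day 8 libraries whose labels conflict belong to no group here. Col1a1 was at 5.06 and 2.36 CPM in them, Col1a2 at 6.70 and 3.97 CPM, Col3a1 at 0.408 and 0.536 CPM, Sparc at 2.70 and 1.93 CPM, Fn1 at 6.78 and 4.72 CPM, Col4a2 at 6.86 and 7.40 CPM and Fbn1 at 1.88 and 31.8 CPM.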
